A study of Mus musculus with 12 samples.

Results

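The liver takes apart most amino acids that the body does not build into protein. The 43 genes described here encode enzymes of that breakdown, listed by symbol for 10 pathways, and all 43 were found among the 24411 rows of the count table and passed the filter on low counts. Poly(A) RNA of whole liver was compared between cont. mice (Atg7flox/flox), Atg7-KO mice (Atg7flox/flox;Alb-Cre) and Atg7-KO;p62T352A mice (Atg7flox/flox;Alb-Cre;p62T352A/p62T352A), all at 3 months of age and with 3 mice in each group. The floxed Atg7 alleles were thus shared by every group, including the controls. Alb-Cre is driven by the albumin promoter and deletes Atg7, an enzyme needed to form autophagosomes, in hepatocytes. Whether all other cells of the liver kept the gene was not tested here. The p62T352A exchange sits in the endogenous Sqstm1 gene, which encodes p62, in every cell of the mouse. In autophagy-deficient hepatocytes p62 gathers in bodies that hold KEAP1, the protein that marks the transcription factor NRF2 for degradation, and the exchange was made by prime editing so that these bodies no longer hold it. The question was which of the breakdown genes differed between cont. and Atg7-KO livers and how the same genes stood in Atg7-KO;p62T352A livers. Compared with Atg7-KO, the paper also reports less p62 protein, a tendency to fewer and smaller p62 bodies, and a reversal of liver enlargement there. The effect of KEAP1 holding alone cannot be told apart from these. A further 3 mice labelled p62T352A were not analysed here.

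Amino acid breakdown usually starts with the removal of the amino group by an aminotransferase, a dehydratase or a lyase. The carbon chain is then opened and shortened, in the cytosol for histidine and tyrosine and mostly in mitochondria for proline, lysine and the branched-chain amino acids, until it enters the citric acid cycle, gluconeogenesis or ketone body formation. Many of these genes are used far more by hepatocytes than by other cells, and some of them, such as Tat, are classical targets of glucocorticoids, glucagon and fasting.

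Total counts lay between 9671080 and 23285132 in cont. mice, from 16157269 to 18480553 in Atg7-KO mice and between 16133620 and 17357172 in Atg7-KO;p62T352A mice. The targeted gene Atg7 was at 46.4, 44.2 and 55.4 CPM in the cont. mice, 10.1, 9.57 and 12.0 CPM in the Atg7-KO mice and 29.7, 27.4 and 29.5 CPM in the Atg7-KO;p62T352A mice. It was lower than in cont. in both other groups, and its level in Atg7-KO;p62T352A was above that in Atg7-KO (log2 fold change 1.45 ± 0.17, edgeR adjusted p = 0.000164), although both carry Alb-Cre. These counts cover the whole gene and not only the deleted part. By immunoblot, the paper reports almost no detectable ATG7 protein in Atg7-KO livers, whether or not p62 was mutated. Sqstm1 was at 505, 341 and 314 CPM in the cont. mice, 911, 871 and 959.7 CPM in the Atg7-KO mice and 497, 626 and 511 CPM in the Atg7-KO;p62T352A mice. The mouse numbered 1 in each group stood apart, with 7 to 28 counts of Xist against 8578 to 18335 in the other mice. It also had 962 to 1190 counts of the Y-linked Ddx3y against 9 to 250. The 250 were in the cont. mouse numbered 2 (23.6 CPM, against 68.2 in the cont. mouse numbered 1), which also had 12492 counts of Xist. The labels give no sex, and the fits were therefore also run on the mice numbered 2 and 3 alone.

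Values below are counts scaled by TMM and library size to a common total (CPM), and fold changes are log2 values ± standard error of the edgeR fit. Gene positions are those of GENCODE vM21 on GRCm38, the assembly also called mm10. A gene was called when its Benjamini-Hochberg adjusted p over all 13922 genes tested was below 0.05 and its fold change was above 1.5. In Atg7-KO against cont., 29 of the 43 breakdown genes fell and 1, Acmsd, rose. Of all genes tested, 43.7% were called in this comparison, 22.1% lower and 21.6% higher. The median log2 fold change was -1.40 over the breakdown genes and -0.03 over all genes. In Atg7-KO;p62T352A against Atg7-KO, 30 of the 43 rose and 1, again Acmsd, fell, where 51.0% of all genes were called, 24.7% higher and 26.2% lower. The medians there were 1.28 and 0.00. In Atg7-KO;p62T352A against cont., 1 of the 43 was called, Sdsl, which rose, and none was called lower by edgeR. Background calls in this comparison were 11.6%, with 6.25% higher and 5.34% lower, and the median of the breakdown genes was -0.11. At an unadjusted p below 0.05 the lower genes numbered 4 there, and the share of all genes at that p is not given here. DESeq2 called 1 of the 43 lower, where it called 6.2% of the genes it tested lower. Both comparisons with Atg7-KO use the same 3 Atg7-KO mice, so their opposite directions are not independent of each other.

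**Figure D1:**
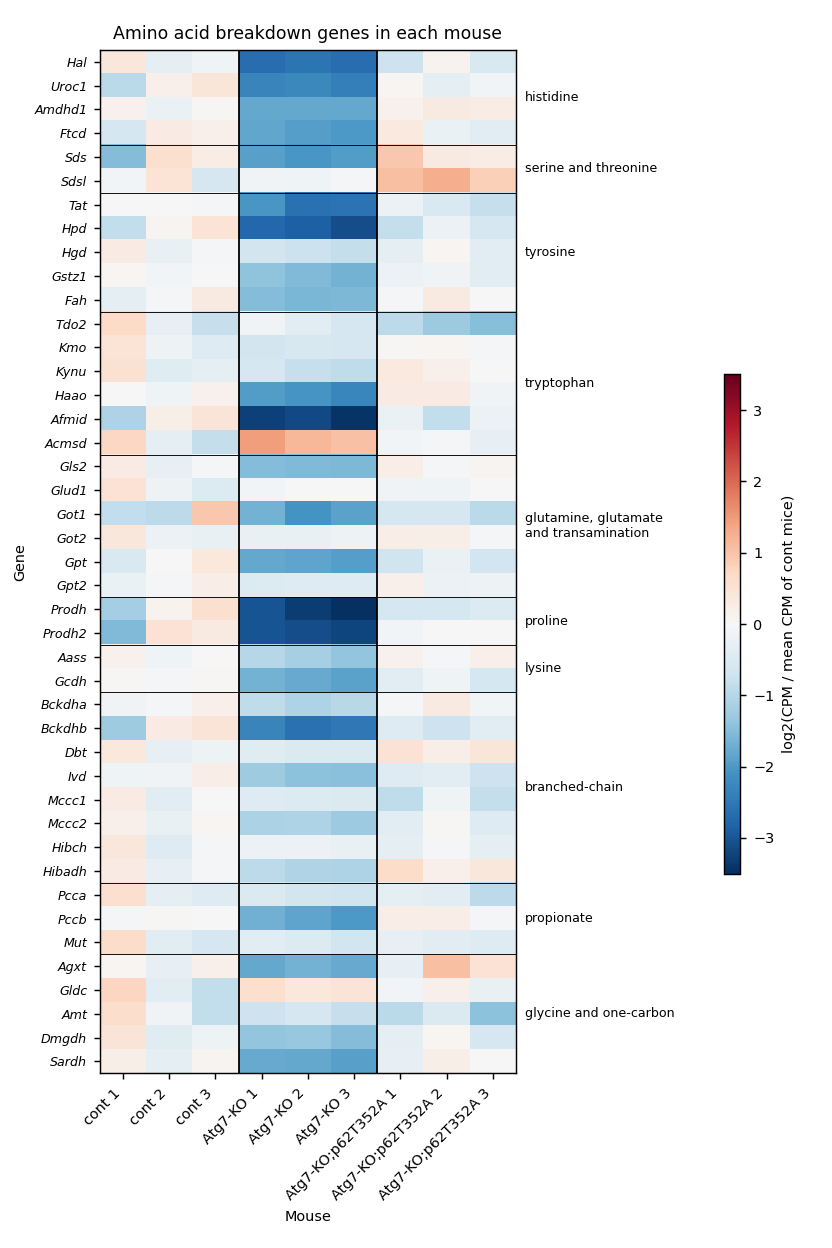
Heat map of the 43 breakdown genes (vertical axis, grouped by pathway) in each of the 9 mice (horizontal axis); colour gives log2 of CPM over the mean CPM of the cont. mice. The Atg7-KO columns are blue for most rows, whereas Acmsd is red, and the Atg7-KO;p62T352A columns are pale for most rows.

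Across the 29 genes that fell, the mean of the Atg7-KO mice was between 10.0% and 59.9% of the cont. mean, with a median of 28.4%. In Atg7-KO;p62T352A mice the means of these 29 genes were between 61.6% and 145% of cont., with a median of 92.6%. Every Atg7-KO mouse was below every cont. mouse for 34 of the 43 genes and above for 1, and the groups overlapped for 8. Over all genes tested, the groups did not overlap for 55.5%. Every Atg7-KO;p62T352A mouse was above every Atg7-KO mouse for 34 of the 43 and below for 3, where 73.2% of all genes did not overlap. Between Atg7-KO;p62T352A and cont. mice 37 of the 43 overlapped, and 26.6% of all genes did not. Of the 29 genes that fell, 27 rose in Atg7-KO;p62T352A against Atg7-KO, and Hgd and Got1 did not pass the test there. Tdo2, Glud1, Got2, Gpt2, Mccc1, Hibch, Pcca, Mut, Gldc and Amt, 10 genes, were called in none of the 3 comparisons by edgeR at these thresholds. The sum over the 43 genes was 20822 to 24402 CPM in cont. mice, 7602 to 8601 CPM in Atg7-KO mice and 17813 to 20443 CPM in Atg7-KO;p62T352A mice. As a share of all counts, which does not depend on TMM, they took 1.56% to 2.30%, 1.00% to 1.10% and 1.67% to 1.69%. With whole livers, fewer hepatocytes and less RNA per hepatocyte cannot be told apart.

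The scale between libraries bore on these counts. TMM factors were 0.750 to 0.953 in cont. mice, 1.28 to 1.32 in Atg7-KO mice and 0.823 to 0.951 in Atg7-KO;p62T352A mice. With library totals alone, the median of all genes in Atg7-KO against cont. moved to 0.55, and 84.3% of the called genes were higher, against 49.4% with TMM. On that scale 24 of the breakdown genes fell and 2 rose, with a median of -0.82. Of all genes tested, 7.92% were called lower and 42.6% higher there. The falls of Hgd, Kynu, Bckdha, Mccc2 and Hibadh were no longer called. The same scale moved the median of all genes in Atg7-KO;p62T352A against Atg7-KO to -0.57. The share of called genes that were higher went from 48.5% to 17.9%. There 22 breakdown genes rose and 6 fell, where 9.64% of all genes tested were called higher and 44.1% lower.

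**Figure D2:**
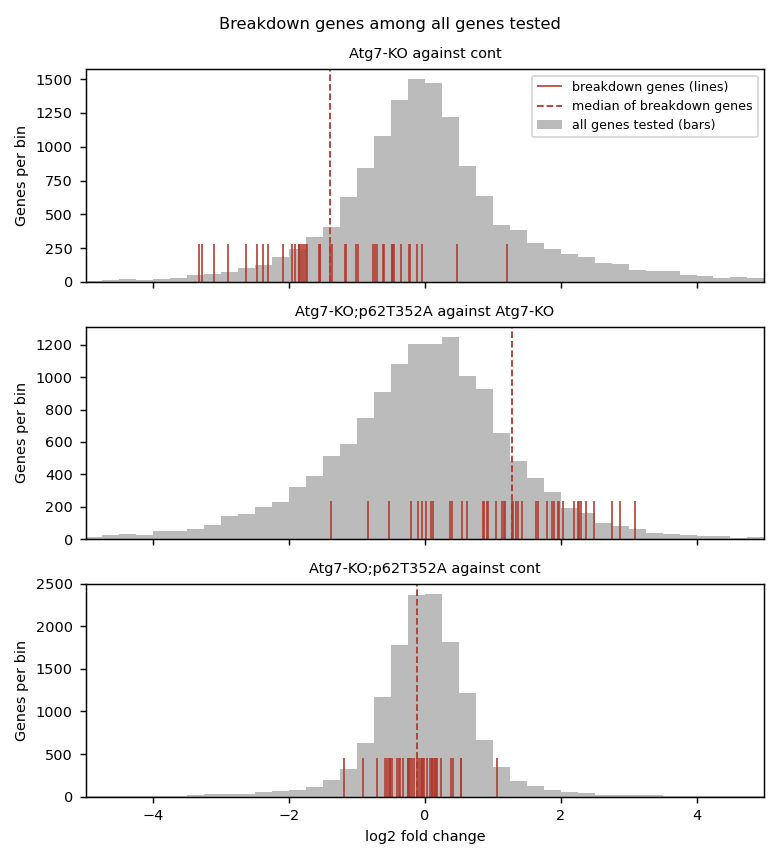
Histograms of log2 fold changes of all 13922 genes tested (grey bars, genes per bin) with the 43 breakdown genes as red lines and their median as a dashed line, for the 3 comparisons; changes beyond 5 either way are not drawn. The median lies at -1.40 in Atg7-KO against cont., at 1.28 in Atg7-KO;p62T352A against Atg7-KO and at -0.11 in Atg7-KO;p62T352A against cont.

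Cell type markers also moved with the Atg7-KO group. Of 7 hepatocyte markers tested, 6 fell in Atg7-KO, and their summed level was 76427 to 132456 CPM in cont. mice, 40652 to 43653 CPM in Atg7-KO mice and 114543 to 135242 CPM in Atg7-KO;p62T352A mice. Alb, the transcript of serum albumin, was at 62573 ± 25614, 26107 ± 1337 and 79153 ± 5326 CPM (mean ± SD) in the order of the groups. Of 7 cholangiocyte markers tested, 5 rose in Atg7-KO (summed level 66.9 to 70.2 CPM in cont., 849.7 to 1046 in Atg7-KO, 205 to 289.6 in Atg7-KO;p62T352A), with Cftr near 0 in cont. Of 8 macrophage markers 6 rose (289 to 424, 1107 to 1177 and 196 to 396 CPM), and of 8 stellate cell markers 7 rose (215 to 272, 905 to 1101 and 337 to 605 CPM). Among 8 lymphocyte markers 5 rose (15.0 to 34.9, 65.7 to 75.04 and 24.9 to 30.6 CPM), and among 8 endothelial markers 3 rose and 2 fell (389 to 448, 355 to 371 and 219 to 234 CPM). Of 5 erythroid genes 2 fell (518 to 1118, 314 to 378 and 558 to 890.4 CPM). In Atg7-KO;p62T352A against cont., 3 cholangiocyte, 3 stellate and 1 lymphocyte marker were called higher, and 6 endothelial markers and 1 erythroid gene lower. These lists were fitted with TMM scaling alone. The part of these cells in the fall of the breakdown genes was not tested.

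**Figure D3:**
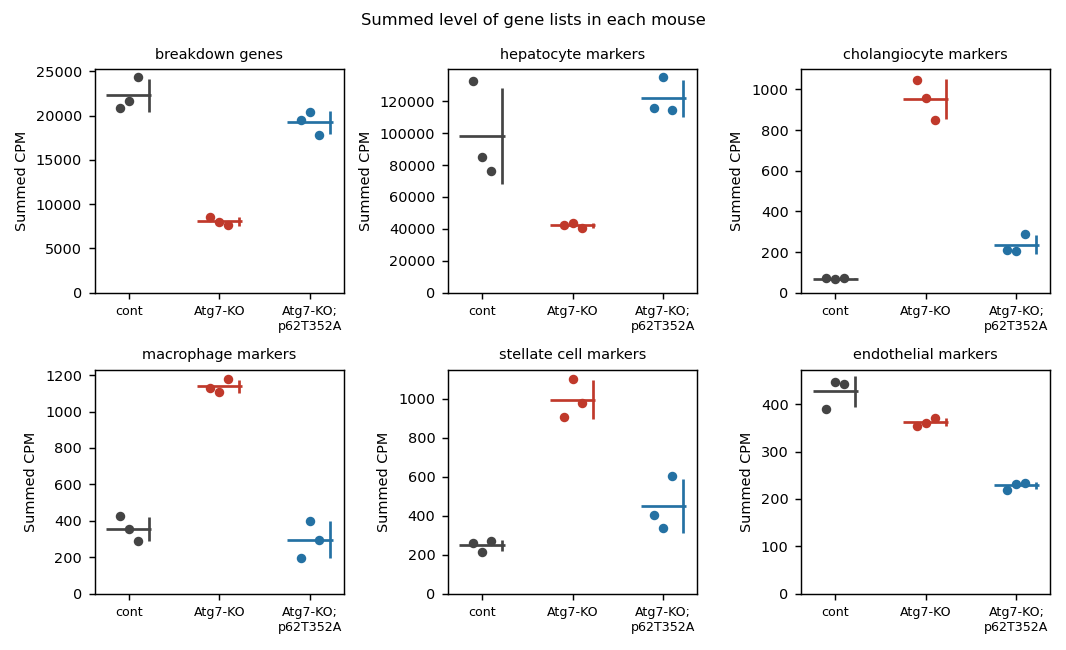
Summed CPM (vertical axes, from 0) of the 43 breakdown genes and of 5 marker lists in each mouse by group; points are mice, horizontal lines means and vertical lines ± SD of 3 mice. The breakdown genes and the hepatocyte markers are lowest in the Atg7-KO mice, and the cholangiocyte, macrophage and stellate cell markers are highest there.

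Promoters from RefSeq (GRCm38.p6, 250 bases before to 50 after the start) matched 36 of the 43 genes. Sds, Sdsl, Kynu, Gls2, Gpt, Dbt and Mut had no entry. They are shown for Prodh (chr16:18089141-18089440, minus strand), Prodh2 (chr7:30493408-30493707, plus strand) and Hal (chr10:93488518-93488817, plus strand), which had the deepest, the third deepest and the fifth deepest fall. These promoters were chosen after values and matches were seen, and those of Afmid and Hpd, which fell more than Hal, held none of the motifs searched. Each is written 5′ to 3′ on the strand of its gene, and capitals mark matches to the motifs named after the sequences.
Prodh: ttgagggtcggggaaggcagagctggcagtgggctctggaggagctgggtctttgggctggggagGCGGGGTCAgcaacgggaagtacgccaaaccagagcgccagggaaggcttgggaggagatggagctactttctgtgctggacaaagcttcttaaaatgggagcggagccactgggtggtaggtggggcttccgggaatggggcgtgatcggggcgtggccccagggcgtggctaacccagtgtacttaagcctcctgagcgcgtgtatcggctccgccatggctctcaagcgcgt
Prodh2: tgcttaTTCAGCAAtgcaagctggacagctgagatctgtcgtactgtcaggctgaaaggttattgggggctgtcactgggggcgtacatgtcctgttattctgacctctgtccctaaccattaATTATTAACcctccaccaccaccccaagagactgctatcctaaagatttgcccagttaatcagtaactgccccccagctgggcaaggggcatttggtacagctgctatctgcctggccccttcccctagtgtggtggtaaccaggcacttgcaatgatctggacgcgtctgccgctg
Hal: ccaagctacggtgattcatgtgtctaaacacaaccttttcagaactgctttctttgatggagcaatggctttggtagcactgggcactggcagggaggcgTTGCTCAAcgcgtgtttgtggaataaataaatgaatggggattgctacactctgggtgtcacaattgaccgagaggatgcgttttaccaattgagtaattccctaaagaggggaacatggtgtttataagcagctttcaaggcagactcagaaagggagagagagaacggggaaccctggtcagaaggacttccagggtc

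Capitals mark TGACNNNGC in Prodh, TTGCNNAA in Hal, and both TTGCNNAA and GTTAATNAT in Prodh2, on either strand. TGACNNNGC, the core of the antioxidant response element bound by NRF2, occurred in the promoters of 4 genes (Tdo2, Prodh, Bckdhb and Amt), which is 11.1%, against 12.5% of 27025 promoters. TTGCNNAA, a C/EBP motif, occurred in 5 (Hal, Hgd, Prodh2, Aass and Gcdh), 13.9% against 10.8%. GTTAATNAT, an HNF1 motif, occurred in Got2 and Prodh2, 5.56% against 0.836%, and CAAAGTCCA, an HNF4 motif, in none of the 36 against 0.477%. No 2 of these motifs overlapped in a promoter printed here. A match describes the letters of the window and does not show that a factor binds there.

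All 4 genes of histidine breakdown fell in Atg7-KO livers. This and the changes below are of RNA, and amounts or activity of the enzymes were not analysed here. Hal, the ammonia lyase that opens the pathway, was at 575, 351 and 393 CPM in the cont. mice, 69.0, 74.1 and 69.6 CPM in the Atg7-KO mice and 266, 482 and 301 CPM in the Atg7-KO;p62T352A mice. The Atg7-KO mice were all far below the other groups, which overlapped. Hal fell in Atg7-KO (log2 fold change -2.63 ± 0.28, edgeR adjusted p = 0.000129) and rose in Atg7-KO;p62T352A against Atg7-KO (log2 fold change 2.30 ± 0.28, edgeR adjusted p = 0.000217). Uroc1, the urocanate hydratase of the next step, was at 465, 1004 and 1201 CPM in the cont. mice, 179.9, 188 and 170.2 CPM in the Atg7-KO mice and 925, 712 and 834 CPM in the Atg7-KO;p62T352A mice. It fell as well (log2 fold change -2.31 ± 0.32, edgeR adjusted p = 0.000499), although the cont. mouse numbered 1 stood closer to the Atg7-KO mice than the other cont. mice did. Amdhd1, which opens the imidazolone ring, and Ftcd, which passes the formimino group to folate, fell with log2 fold changes of -1.79 and -1.92. The 4 genes rose again in Atg7-KO;p62T352A against Atg7-KO, between 1.87 and 2.30 on the log2 scale. Amdhd1 was the most even of the breakdown genes in Atg7-KO mice, with a coefficient of variation of 0.425%.

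The 5 genes of tyrosine breakdown all fell, with the call of Hgd made in 12 of 16 alternative settings. Tat, the aminotransferase of the first step, was at 2468, 2472 and 2354 CPM in the cont. mice, 598, 396 and 406 CPM in the Atg7-KO mice and 2118, 1692 and 1401 CPM in the Atg7-KO;p62T352A mice. No Atg7-KO mouse came near the other groups, and the cont. mice were also all above the Atg7-KO;p62T352A mice. Tat fell in Atg7-KO (log2 fold change -2.38 ± 0.25, edgeR adjusted p = 0.000111), and it was not called in Atg7-KO;p62T352A against cont. Hpd, the hydroxyphenylpyruvate dioxygenase that follows (chr5:123171807-123182727, minus strand), was at 2055, 3972 and 5139 CPM in the cont. mice, 557, 511 and 434 CPM in the Atg7-KO mice and 2100.2, 3199.8 and 2489 CPM in the Atg7-KO;p62T352A mice. It fell 7.43-fold in Atg7-KO (log2 fold change -2.89 ± 0.35, edgeR adjusted p = 0.000232), with every Atg7-KO mouse below all others. Per kilobase of transcript Hpd was the most abundant of the breakdown transcripts in each group, at 2651 CPM per kb in cont. mice, 357 CPM per kb in Atg7-KO mice and 1849 CPM per kb in Atg7-KO;p62T352A mice. Downstream, Gstz1 (maleylacetoacetate isomerase) and Fah (fumarylacetoacetate hydrolase, the last step) fell by less, with -1.54 and -1.57. Gm6566 and Pomt2 on the opposite strand overlap 22.3% of the exonic bases of Gstz1. Hgd, homogentisate dioxygenase, had the smallest called change of the breakdown genes that fell (log2 fold change -0.74 ± 0.21, edgeR adjusted p = 0.0179). Of these 5 genes, 4 rose in Atg7-KO;p62T352A against Atg7-KO, and Hgd differed by 0.54 without passing the test (edgeR adjusted p = 0.0522).

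**Figure D4:**
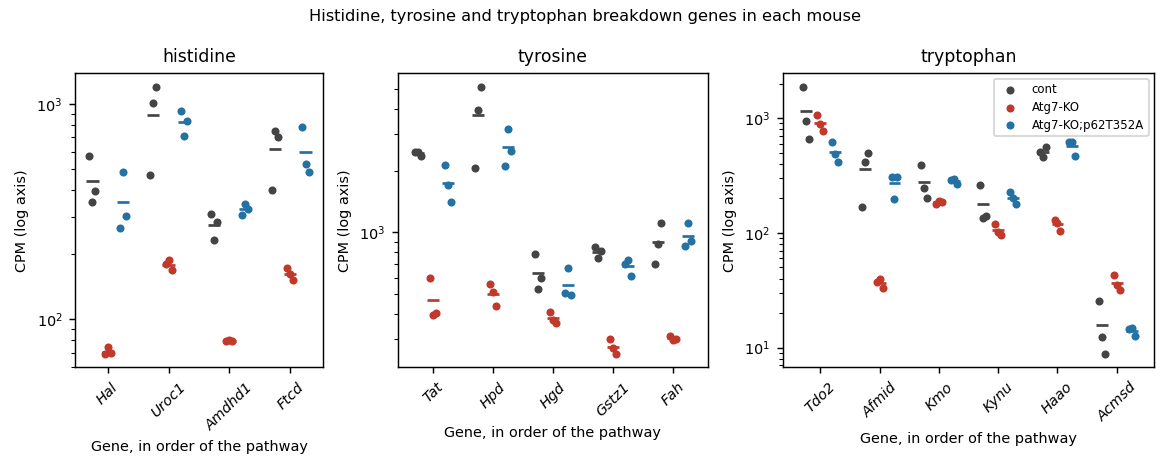
CPM on a log axis for the genes of histidine, tyrosine and tryptophan breakdown in the order of the pathway; points are single mice (black cont., red Atg7-KO, blue Atg7-KO;p62T352A) and short lines group means. All histidine and tyrosine genes are lowest in Atg7-KO, whereas in the tryptophan pathway Tdo2 is lowest in Atg7-KO;p62T352A and Acmsd is highest in Atg7-KO.

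Of 6 genes of tryptophan breakdown, 3 fell and 1 rose in Atg7-KO. Afmid, the formamidase that releases kynurenine (chr11:117825924-117839908, plus strand), was at 168, 413 and 494 CPM in the cont. mice, 37.2, 40.1 and 33.4 CPM in the Atg7-KO mice and 305, 197 and 309 CPM in the Atg7-KO;p62T352A mice. With log2 fold change -3.28 ± 0.39, edgeR adjusted p = 0.000203 it had the second deepest fall of the 43 genes. Afmid shares 46.1% of its 75-base stretches with the read-through gene Gm20708 and is overlapped by Tk1 on the opposite strand, and with the strand setting of the counting not stated its level is uncertain. Haao, which cleaves hydroxyanthranilate on the way to NAD, was at 503, 455 and 559.7 CPM in the cont. mice, 129.9, 121 and 105 CPM in the Atg7-KO mice and 620.4, 618 and 464 CPM in the Atg7-KO;p62T352A mice. It also fell (log2 fold change -2.09 ± 0.20, edgeR adjusted p = 6.97e-05), and the groups cont. and Atg7-KO;p62T352A overlapped around the same level. Kynu (kynureninase) fell by less (log2 fold change -0.76 ± 0.26, edgeR adjusted p = 0.0379), a call made in 6 of 16 alternative settings. Kmo, the hydroxylase on the mitochondrial outer membrane, stayed short of the threshold in Atg7-KO (log2 fold change -0.60 ± 0.23, edgeR adjusted p = 0.0612) and was called higher in Atg7-KO;p62T352A against Atg7-KO (log2 fold change 0.62 ± 0.23, edgeR adjusted p = 0.0475), a call made in 3 of 16 settings.

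Single mouse values of Acmsd and Tdo2 are given because of their levels, and were chosen after these were seen. Acmsd, whose product diverts the pathway away from NAD synthesis, was at 25.7, 12.5 and 8.79 CPM in the cont. mice, 43.04, 35.2 and 31.6 CPM in the Atg7-KO mice and 14.6, 14.9 and 12.7 CPM in the Atg7-KO;p62T352A mice. All Atg7-KO mice were above all other mice. Per kilobase Acmsd in Atg7-KO was at 13.5 CPM per kb, close to Afmid at 15.9 and below Haao at 85.8. Acmsd was the one breakdown gene that rose in Atg7-KO (log2 fold change 1.21 ± 0.34, edgeR adjusted p = 0.0156) and the one that fell in Atg7-KO;p62T352A against Atg7-KO (log2 fold change -1.38 ± 0.34, edgeR adjusted p = 0.00735). Without the cont. mouse numbered 2 or the Atg7-KO mouse numbered 1 the log2 fold change was 0.97 and 1.08 and was no longer called. Tdo2, the heme dioxygenase that commits tryptophan to this pathway (chr3:81957090-81976202, minus strand), was at 1883, 947 and 662 CPM in the cont. mice, 1061, 891 and 768 CPM in the Atg7-KO mice and 622, 486 and 418 CPM in the Atg7-KO;p62T352A mice. In Atg7-KO it overlapped with cont. (log2 fold change -0.36, 95% interval -1.16 to 0.44), and it was lowest in Atg7-KO;p62T352A, where every mouse was below every mouse of both other groups. Neither its difference from cont. (log2 fold change -1.19 ± 0.36, edgeR adjusted p = 0.0608) nor that from Atg7-KO (log2 fold change -0.83 ± 0.36, edgeR adjusted p = 0.0737) passed the threshold. Tdo2 was called lower than in Atg7-KO in 7 of 16 alternative settings, DESeq2 among them (-0.87). Against cont. it was called lower in 5 of 16 alternative settings, including DESeq2 (-1.27) and the mice numbered 2 and 3 alone (-0.83).

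Both genes of proline breakdown fell about as deeply as any of the 43. Prodh, the mitochondrial proline dehydrogenase, was at 153, 380.5 and 513 CPM in the cont. mice, 43.1, 34.9 and 26.6 CPM in the Atg7-KO mice and 229, 229 and 248 CPM in the Atg7-KO;p62T352A mice. It fell 10.0-fold in Atg7-KO (log2 fold change -3.32 ± 0.41, edgeR adjusted p = 0.000243), and Atg7-KO;p62T352A mice lay within the range of cont. Prodh2, which oxidizes hydroxyproline, was at 184, 755 and 669 CPM in the cont. mice, 65.8, 62.1 and 57.8 CPM in the Atg7-KO mice and 505, 537 and 538 CPM in the Atg7-KO;p62T352A mice. It fell by a similar amount (log2 fold change -3.11 ± 0.44, edgeR adjusted p = 0.000551) and rose in Atg7-KO;p62T352A against Atg7-KO (log2 fold change 3.09 ± 0.44, edgeR adjusted p = 0.000466). For both genes the cont. mouse numbered 1 was the lowest of its group, and its level was still above all Atg7-KO mice. In the mice numbered 2 and 3 alone the change of Prodh in Atg7-KO;p62T352A against cont. was -0.90 and passed the threshold.

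Of the serine and threonine dehydratases, Sds fell in Atg7-KO and Sdsl was not called there. Sds, serine dehydratase, was at 169, 715 and 578 CPM in the cont. mice, 131, 119 and 126 CPM in the Atg7-KO mice and 929, 607 and 578 CPM in the Atg7-KO;p62T352A mice. It fell in Atg7-KO (log2 fold change -1.96 ± 0.45, edgeR adjusted p = 0.00635) with a wide spread in cont., where the mouse numbered 1 was near the Atg7-KO level. Exons of Sds overlap by 33.8% with Gm15690 and Plbd2 on the opposite strand. Sdsl, the related serine dehydratase-like enzyme (chr5:120458186-120472810, minus strand), was at 9.86, 14.8 and 7.03 CPM in the cont. mice, 9.67, 9.49 and 10.1 CPM in the Atg7-KO mice and 21.9, 25.6 and 18.8 CPM in the Atg7-KO;p62T352A mice. Its level was low, with 64 counts in the lowest mouse, and in Atg7-KO it stayed within the range of cont. (log2 fold change -0.12, 95% interval -0.68 to 0.45). In Atg7-KO;p62T352A all mice were above all others, and Sdsl was the gene called against cont. (log2 fold change 1.06 ± 0.25, edgeR adjusted p = 0.0277). That call was made in 9 of 16 alternative settings, and it was lost in the mice numbered 2 and 3 alone and when any single Atg7-KO or Atg7-KO;p62T352A mouse was left out.

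Among the enzymes that move nitrogen through glutamate, 3 of 6 fell. Gls2, the liver glutaminase of mitochondria, fell in Atg7-KO (log2 fold change -1.54 ± 0.20, edgeR adjusted p = 0.000304). Gpt, the cytosolic alanine aminotransferase, was at 318, 470.4 and 603 CPM in the cont. mice, 134, 129 and 121 CPM in the Atg7-KO mice and 287, 395 and 289 CPM in the Atg7-KO;p62T352A mice, and it fell with the groups apart (log2 fold change -1.86 ± 0.26, edgeR adjusted p = 0.000456). Got1, the cytosolic aspartate aminotransferase, was at 258, 249 and 893 CPM in the cont. mice, 148, 109 and 128 CPM in the Atg7-KO mice and 305, 312 and 244 CPM in the Atg7-KO;p62T352A mice. Its mean in cont. rested on the mouse numbered 3, yet all cont. mice were above all Atg7-KO mice (log2 fold change -1.86 ± 0.46, edgeR adjusted p = 0.00884). Without that mouse the log2 fold change was -0.99 and was still called. In Atg7-KO;p62T352A against Atg7-KO, Got1 narrowly missed the threshold (log2 fold change 1.16 ± 0.45, edgeR adjusted p = 0.051), with every Atg7-KO;p62T352A mouse above every Atg7-KO mouse, and it was called higher in 6 of 16 alternative settings, DESeq2 among them. The mitochondrial partners Gpt2 and Got2 and the glutamate dehydrogenase Glud1 were not called in any comparison. Glud1 was at 1032 ± 376, 1001 ± 36.5 and 971 ± 61.0 CPM (mean ± SD), with a change in Atg7-KO of -0.04 and a 95% interval of -0.61 to 0.52. Got2 shares 23.6% of its 75-base stretches with the pseudogene Got2-ps1, and Gm45760 on the opposite strand overlaps 15% of its exonic bases.

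Ratios of partner genes within a mouse do not depend on the scaling between libraries. The ratio of Got1 to Got2 counts was 0.416, 0.609 and 2.27 in cont. and 0.373, 0.275 and 0.307 in Atg7-KO mice. The ratio of Gpt to Gpt2 was 0.739, 0.947 and 1.02 in cont. and 0.368, 0.348 and 0.324 in Atg7-KO mice. In both pairs the Atg7-KO mice were below all cont. mice, closely so for Got1. The same held for pairs of subunits that act together: Pccb to Pcca was 3.08 to 6.598 in cont. and 1.95 to 2.11 in Atg7-KO, Mccc2 to Mccc1 was 1.19 to 1.39 and 0.752 to 0.848, and Bckdhb to Bckdha was 0.404 to 1.11 and 0.301 to 0.331. In Atg7-KO;p62T352A mice the ratio was 0.534 to 0.570 for Got1 to Got2, 0.499 to 0.903 for Gpt to Gpt2 and 0.426 to 0.710 for Bckdhb to Bckdha, overlapping with cont. Pccb to Pcca was 7.13 to 8.55 and Mccc2 to Mccc1 1.47 to 1.83 there, with every Atg7-KO;p62T352A mouse above every cont. mouse. With 3 mice against 3 an exact two-sided permutation test cannot go below 0.1, so these 5 ratios, chosen after the levels were seen, are given as values alone.

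Both genes of lysine breakdown fell in Atg7-KO. Gcdh, glutaryl-CoA dehydrogenase, was at 553, 514 and 560.5 CPM in the cont. mice, 174, 161 and 148 CPM in the Atg7-KO mice and 409, 488 and 356 CPM in the Atg7-KO;p62T352A mice. It fell in Atg7-KO (log2 fold change -1.75 ± 0.18, edgeR adjusted p = 0.000114), and all Atg7-KO;p62T352A mice were between the other groups. Aass, the bifunctional enzyme of the first steps, was at 355, 284 and 312 CPM in the cont. mice, 158, 142 and 121 CPM in the Atg7-KO mice and 349.5, 309.5 and 361 CPM in the Atg7-KO;p62T352A mice. It fell as well (log2 fold change -1.18 ± 0.18, edgeR adjusted p = 0.000838) and in Atg7-KO;p62T352A overlapped with cont.

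Of 8 genes of branched-chain breakdown, 5 fell in Atg7-KO. Bckdhb, the beta subunit of the dehydrogenase that commits the branched-chain keto acids, was at 88.0, 251 and 282 CPM in the cont. mice, 41.9, 34.0 and 36.2 CPM in the Atg7-KO mice and 151, 126 and 158 CPM in the Atg7-KO;p62T352A mice. It had the deepest fall of the group (log2 fold change -2.47 ± 0.38, edgeR adjusted p = 0.000801), and the cont. mouse numbered 1 was again the lowest of its group. Ivd, the isovaleryl-CoA dehydrogenase of leucine breakdown, was at 192, 194 and 250.1 CPM in the cont. mice, 90.2, 79.0 and 76.2 CPM in the Atg7-KO mice and 154, 162 and 128 CPM in the Atg7-KO;p62T352A mice, with no overlap between any of the groups (log2 fold change -1.37 ± 0.18, edgeR adjusted p = 0.000393). Mccc2, a subunit of the leucine pathway carboxylase, Hibadh, a dehydrogenase of valine breakdown, and Bckdha, the alpha subunit of the branched-chain dehydrogenase, fell with log2 fold changes of -1.16, -1.02 and -0.98. B3gnt8 on the opposite strand overlaps 61.7% of the exonic bases of Bckdha. Dbt, the acyltransferase core of that dehydrogenase, was not called in Atg7-KO (log2 fold change -0.48 ± 0.20, edgeR adjusted p = 0.0744) and rose in Atg7-KO;p62T352A against Atg7-KO (log2 fold change 0.87 ± 0.20, edgeR adjusted p = 0.00539). The other carboxylase subunit, Mccc1, and the valine pathway hydrolase Hibch were not called in any comparison, with 45.4 ± 10.3 and 69.2 ± 20.5 CPM in cont. and 32.5 ± 0.794 and 59.2 ± 1.61 in Atg7-KO. Genes on the opposite strand overlap 12.6% of the exonic bases of Mccc1.

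Propionate, the common end of valine, isoleucine, methionine and threonine, is handled by Pcca, Pccb and Mut. Pccb, a subunit of propionyl-CoA carboxylase, was at 241, 265 and 259.6 CPM in the cont. mice, 79.6, 70.7 and 63.7 CPM in the Atg7-KO mice and 299.5, 302 and 243 CPM in the Atg7-KO;p62T352A mice. It fell in Atg7-KO (log2 fold change -1.84 ± 0.17, edgeR adjusted p = 6.96e-05) and rose in Atg7-KO;p62T352A against Atg7-KO (log2 fold change 1.98 ± 0.18, edgeR adjusted p = 5.94e-05). Pcca, the partner subunit, was at 53.5 ± 21.7, 35.0 ± 2.53 and 37.3 ± 7.65 CPM and Mut, methylmalonyl-CoA mutase, at 136 ± 66.9, 96.8 ± 8.92 and 105 ± 5.05, and neither was called.

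Of 5 genes for glycine and its methylated forms, 3 fell. Sardh, sarcosine dehydrogenase, was at 992, 675 and 914 CPM in the cont. mice, 252, 249 and 232 CPM in the Atg7-KO mice and 709.6, 999 and 845 CPM in the Atg7-KO;p62T352A mice. It fell in Atg7-KO (log2 fold change -1.82 ± 0.22, edgeR adjusted p = 0.000222), and the other groups overlapped. Agxt, the peroxisomal aminotransferase that detoxifies glyoxylate, was at 297, 234 and 318 CPM in the cont. mice, 81.8, 89.5 and 82.9 CPM in the Atg7-KO mice and 234, 588 and 400.2 CPM in the Atg7-KO;p62T352A mice. It fell too (log2 fold change -1.74 ± 0.30, edgeR adjusted p = 0.00164), and the Atg7-KO;p62T352A mice were spread from within cont. to well above it. Dmgdh, dimethylglycine dehydrogenase, fell as well (log2 fold change -1.40 ± 0.27, edgeR adjusted p = 0.0025). The glycine cleavage genes Gldc and Amt were not called, with Gldc at 164 ± 100.1, 227 ± 17.4 and 158 ± 24.3 CPM and a change in Atg7-KO of 0.48 (-0.33 to 1.28, 95% interval), and Amt at 25.5 ± 12.8, 15.6 ± 1.31 and 13.6 ± 4.31 CPM. Gldc rested on the cont. mouse numbered 1. Without it the log2 fold change of Gldc in Atg7-KO was 1.09 and was called higher, and it was also called higher in the mice numbered 2 and 3 alone (1.03) and with library totals (1.12).

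**Figure D5:**
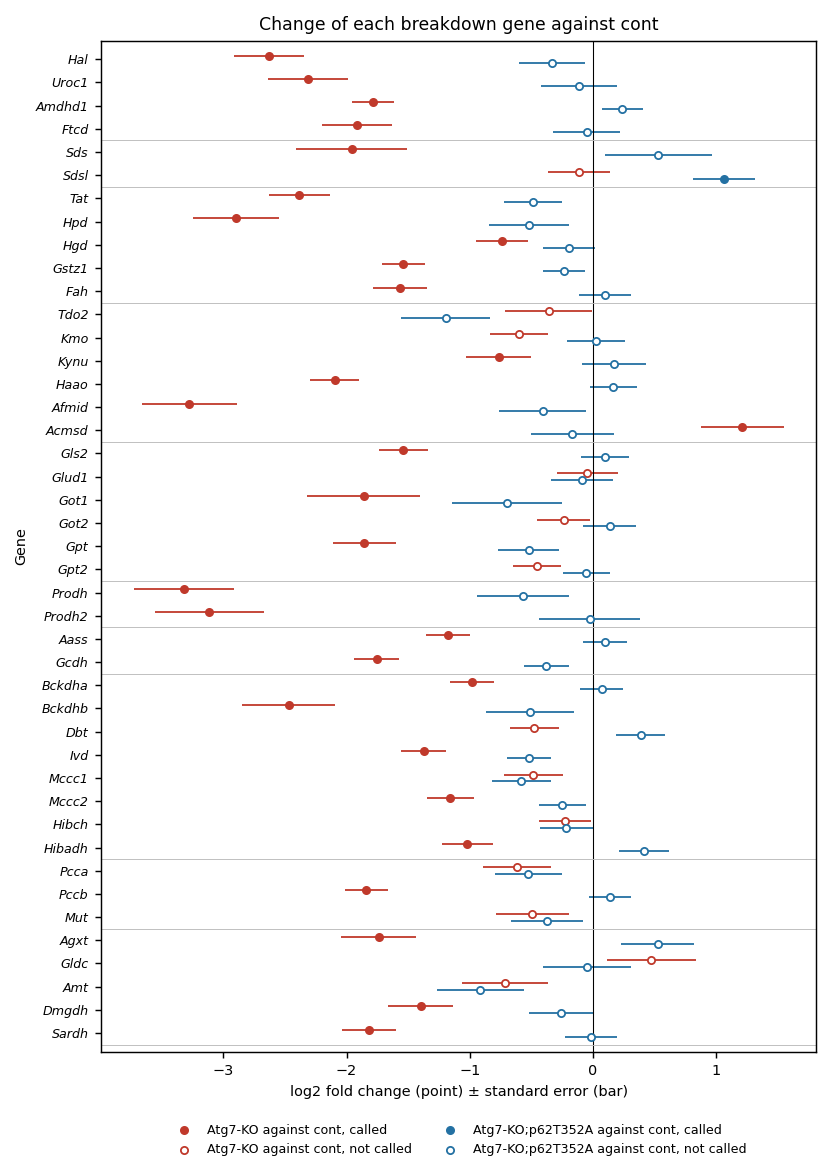
Log2 fold change (point) ± standard error (bar) of each breakdown gene (vertical axis, in pathway order) in Atg7-KO (red) and Atg7-KO;p62T352A (blue) against cont.; filled points are called. Red points run from -3.32 for Prodh to 1.21 for Acmsd, and the one filled blue point is Sdsl at 1.06.

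By the place of the enzyme, 15 of 18 cytosolic genes fell in Atg7-KO, with a median of -1.86, and 13 of 24 mitochondrial genes, with a median of -1.00, and the difference between these places was not tested. The spread within groups also differed. The median coefficient of variation of the 43 genes was 29.7% in cont. mice, 6.58% in Atg7-KO mice and 15.3% in Atg7-KO;p62T352A mice. The cont. mouse numbered 1 was the highest of its group for 23 genes and the lowest for 14, and it lay at least 1.5-fold below the mean of the other cont. mice for 10 genes and at least 1.5-fold above it for 14. Between Atg7-KO;p62T352A and cont., the 95% interval of the change lay within 1.5-fold either way for 8 of the 43 genes. For the remaining genes the interval also held changes larger than that. In the mice numbered 2 and 3 alone, Tdo2, Afmid, Prodh and Bckdhb were called lower and Agxt higher in that comparison. Of all genes tested, 11.8% were called lower and 9.35% higher in that setting. Without the cont. mouse numbered 1, Hpd, Afmid, Gpt, Prodh and Bckdhb were called lower and Sdsl and Dbt higher. There 12.2% of all genes were called lower and 10.7% higher. Without the cont. mouse numbered 3, Tdo2 and Amt were called lower, where 5.77% of all genes were called lower.

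Other enzymes of amino acid breakdown, 40 genes tested from a list beside the 43, were counted in the same way. In Atg7-KO 25 fell (median -0.98), in Atg7-KO;p62T352A against Atg7-KO 19 rose and 2 fell (median 0.69), and against cont. 3 were lower (median -0.09). The deepest falls were those of Ccbl1, a kynurenine aminotransferase (log2 fold change -2.70 ± 0.36, edgeR adjusted p = 0.000357), and Pipox, the peroxisomal pipecolate oxidase of lysine breakdown (log2 fold change -2.38 ± 0.21, edgeR adjusted p = 4.41e-05). The genes that were lower against cont. in Atg7-KO;p62T352A are named after their values were seen. Dhtkd1 of lysine breakdown was at 37.2, 32.1 and 55.5 CPM in the cont. mice, 9.91, 9.53 and 8.23 CPM in the Atg7-KO mice and 11.4, 4.69 and 5.22 CPM in the Atg7-KO;p62T352A mice (log2 fold change -2.55 ± 0.35, edgeR adjusted p = 0.00606, against cont.). Aldh4a1 of proline breakdown was at 498, 356 and 419.6 CPM in the cont. mice, 205, 211 and 192 CPM in the Atg7-KO mice and 264, 279 and 271 CPM in the Atg7-KO;p62T352A mice (log2 fold change -0.65 ± 0.18, edgeR adjusted p = 0.0426). Aldh6a1 of valine breakdown was at 637, 376 and 319.6 CPM in the cont. mice, 276, 256 and 218 CPM in the Atg7-KO mice and 225, 216 and 204 CPM in the Atg7-KO;p62T352A mice (log2 fold change -1.05 ± 0.26, edgeR adjusted p = 0.0308). For each of them all mice of both other groups were below all cont. mice. These genes fell in Atg7-KO and were not called higher in Atg7-KO;p62T352A against Atg7-KO.

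Of 10 regulators of such genes, 5 fell in Atg7-KO (median -0.86) and 8 rose in Atg7-KO;p62T352A against Atg7-KO (median 1.00). Against cont. their median change in Atg7-KO;p62T352A was 0.19. Gcgr, the glucagon receptor, fell in Atg7-KO (log2 fold change -2.26 ± 0.38, edgeR adjusted p = 0.00127), and so did Cebpb, a transcription factor of the C/EBP family (log2 fold change -1.31 ± 0.35, edgeR adjusted p = 0.0129). Hnf4a, a nuclear receptor that maintains hepatocyte gene expression, was at 529 ± 91.5, 404 ± 36.4 and 668 ± 73.4 CPM and was called in Atg7-KO;p62T352A against Atg7-KO alone (log2 fold change 0.73 ± 0.20, edgeR adjusted p = 0.0119).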

How the data were processed

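Livers of 9 mice were analysed, 3 in each of 3 groups given by the genotype in the labels. Per the labels, RNA was extracted with an RNeasy kit and poly(A) RNA was isolated, whereas the study's methods name TRIzol for the extraction. The deposited values are expected counts per gene that the authors estimated with RSEM after alignment with STAR to mm10, with reads trimmed by Trim Galore, as named in the submitters' processing notes. Versions, annotation and the strand setting are not given in the sources used here. The expected counts were rounded to whole numbers.

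Genes of low count were removed (filterByExpr), libraries were scaled by TMM, and the 3 groups were fitted together by the quasi-likelihood test of edgeR 4.0.16 in R 4.3.3 with Benjamini-Hochberg adjustment over the 13922 genes tested. The standard error was taken from the fold change and the F value of the test. Calls needed an adjusted p below 0.05 and a fold change above 1.5. The steps were tested on simulated data in which few genes changed, as many up as down. The shift in scale between the groups seen here was not part of that test. The members and gene lists, among them regulators, other breakdown enzymes and cell type markers, were chosen with earlier results of these data known. Values of every mouse are given for the 2 called genes of each pathway with the largest change in Atg7-KO against cont. and for genes called in Atg7-KO;p62T352A against cont. Other breakdown enzymes are named for the 2 largest changes in each direction, and up to 3 genes of other lists by their mean level. Names outside this rule, chosen after their values were seen, are the single mouse values of Acmsd and Tdo2, Dhtkd1, Aldh4a1, Aldh6a1, the partner ratios and the promoters printed. Some results that fall under this rule are not reported here. Levels per kilobase used the longest coding transcript of GENCODE vM21.

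Alternatives were DESeq2 1.42.0, DESeq2 size factors, upper-quartile scaling, no filter on low counts, a call by adjusted p alone, the mouse number as a block, the mice numbered 2 and 3 alone, and each mouse left out in turn. Scaling by library totals alone was added after seeing the data. A breakdown gene had between 64 and 46757 counts in a mouse. Replicates of a group differed beyond counting noise. The labels do not state whether mice were littermates or processed together.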

Additional observations from a re-analysis of the deposited data

How the results depend on the processing

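Of the 30 breakdown genes called in Atg7-KO against cont., 24 were called under all 16 alternatives, and of 31 called in Atg7-KO;p62T352A against Atg7-KO, 23 were. Called genes did not change sign in any of the 3 comparisons. The number that fell in Atg7-KO lay between 24 (library totals) and 32, and between 27 and 32 when 1 mouse was left out. Of all genes tested, 7.92% were called lower with library totals and 15.2% to 28% with 1 mouse left out. The number that rose in Atg7-KO was 2 in the mice numbered 2 and 3 alone and with library totals, and 0 to 2 with 1 mouse left out. Shares of all genes called higher were, in that order, 27.1%, 42.6% and 16.8% to 28%. Between 22 (library totals) and 31 genes rose in Atg7-KO;p62T352A against Atg7-KO. With library totals 9.64% of all genes were called higher, and 18.9% to 28.2% with 1 mouse left out. The number that fell there was 2 with DESeq2, upper-quartile scaling, the mouse number as a block or the mice numbered 2 and 3 alone, 6 with library totals, and 1 to 2 with 1 mouse left out. Shares of all genes called lower were, in that order, 20.5%, 29.7%, 26.1%, 27.6%, 44.1% and 21.2% to 29.1%. Against cont., Atg7-KO;p62T352A genes called higher numbered 0 to 2 with 1 mouse left out, where 1.72% to 10.7% of all genes were. Those called lower were 1 with DESeq2, with the mouse number as a block and with library totals, 4 in the mice numbered 2 and 3 alone, and 0 to 5 with 1 mouse left out. Shares of all genes called lower were, in that order, 6.2%, 3.38%, 4.96%, 11.8% and 1.35% to 12.2%. Over all genes, this comparison had 1613 calls, 988 with the block, 2975 in the mice numbered 2 and 3 alone, 2210 with DESeq2, and 435 to 3245 with 1 mouse left out.

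Of uncalled genes, 11 of 13 changed sign in some setting in Atg7-KO against cont., 8 of 12 in Atg7-KO;p62T352A against Atg7-KO and 22 of 42 against cont. Those with a printed change turned positive as follows in Atg7-KO against cont. Sdsl was at 0.0034 with upper-quartile scaling, 0.11 without cont. replicate 2 and 0.45 with library totals. Tdo2 was at 0.044 in the mice numbered 2 and 3 alone, 0.17 without cont. replicate 1 and 0.27 with library totals. Glud1 was at 0.065, 0.32, 0.28 and 0.57 with upper-quartile scaling, in the mice numbered 2 and 3 alone, without cont. replicate 1 and with library totals. Kmo and Dbt were at 0.013 and 0.12 with library totals. With library totals Hgd was at -0.040 in Atg7-KO;p62T352A against Atg7-KO. With 1 mouse left out, the range was -0.34 to 0.11 for Sdsl, -0.65 to 0.17 for Tdo2 and -0.24 to 0.28 for Glud1. The cause of these shifts was not tested.

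The mouse numbers were not shown to pair the groups. Deviations of same-numbered mice from their group means correlated with a mean r of 0.146 (-0.202 to 0.321, 9 pairs), and other pairs with -0.0705. Removing the group means ties these averages to each other, so they cannot decide on pairing. Same-numbered pairs also joined the mice numbered 1, which had few counts of Xist in each group. With the block, 29 breakdown genes fell in Atg7-KO, where 19.9% of all genes were called lower. Tdo2 was then called lower in Atg7-KO;p62T352A against both other groups, by -0.85 (Atg7-KO) and -1.10 (cont.). Upper-quartile scaling moved the median of all genes in Atg7-KO;p62T352A against Atg7-KO to -0.13. Sdsl and Acmsd had fewer than 100 counts in some mouse, the thinnest depth among the breakdown genes.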
